A study of Mus musculus with 10 samples.

Results

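The untreated tumours of TH-MYCN mice are the 3 untreated libraries of a series of 10, chosen by their label. In TH-MYCN mice the tyrosine hydroxylase promoter directs a human MYCN transgene to cells of the sympathetic lineage. All 3 libraries come from tumours of that strain that had received no drug, and the other 7, from mice given a drug combination, were not analysed here. Tumours were flash frozen, and polyadenylated RNA was sequenced. The labels give neither the age and sex of the mice nor whether the 3 tumours came from separate mice. Tests between libraries therefore measure only the spread between these samples, part of which may be technical. No comparison between groups was made, and libraries are called 1, 2 and 3 after the repeat number in their labels.

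Neuroblastoma arises from the sympathoadrenal lineage of the neural crest. Its adrenergic cells are held in their identity by a circuit of transcription factors that includes HAND2, GATA3, ISL1 and TFAP2B, and they make catecholamines from tyrosine through TH, DDC and DBH. MYCN drives ribosome biogenesis, nucleotide synthesis and cell cycle entry in these cells, partly by binding E-boxes with its partner MAX, and tumours also hold vessels, fibroblasts and macrophages.

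Libraries held 5620005, 5653519 and 5638924 counts. A level is given as a normalised read count (CPM, with library sizes scaled by TMM) or, where genes are compared with each other, as CPM per kilobase of merged exons. At least 1 count in every library was found for 17822 genes, of which 17814 had a symbol and were ranked by CPM per kilobase. A gene with no count is limited to about 3 counts, or 0.535, 0.529 and 0.533 CPM in libraries 1, 2 and 3. This limit covers counting error only. In bulk tissue, fewer cells of a type and less RNA per cell cannot be told apart.

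Genes lying inside other genes were counted low or not at all, which bears on the levels below. Of 1475 protein-coding genes whose exons lie wholly within the annotated span of another gene, introns and both strands included, 92.5% had 0 counts in all 3 libraries. Of 14059 protein-coding genes with no such overlap, 26.7% did. Among the 482 genes of the lists used here, 44 had 0 counts in all libraries, and 18 of those 44 were at least 90% inside another gene. They include B2m, the light chain of MHC class I, which lies in the span of Patl2, and the neurofilament gene Nefl, in that of Nefm. They also include Tubb3, a neuronal tubulin, and Cdt1, a replication licensing factor, both in the span of Gm20388. A count of 0 in such a gene gives no information on its RNA, and such genes are named below only where their 0 could be misread.

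**Figure D1:**
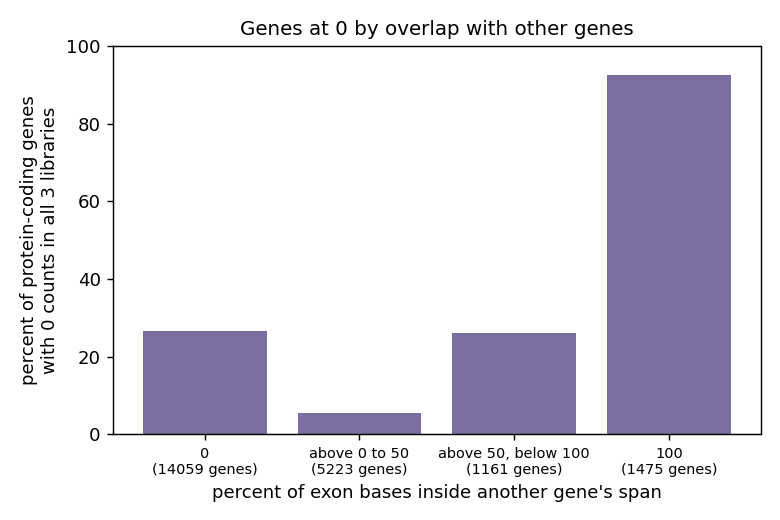
Bars give the percent of protein-coding genes with 0 counts in all 3 untreated libraries (y axis), by the percent of their exon bases inside the span of another gene (x axis, number of genes below each bar). The share is 92.5% where all exon bases lie inside another gene, against 26.7% where none do.

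The ratio between libraries also moved with transcript length. Among 7793 nuclear protein-coding genes with a mean of at least 20 CPM, library 2 was at a median of 1.12 times the mean of libraries 1 and 3 in the 25% with the longest transcripts. In the 25% with the shortest transcripts it was at 0.949 times. Library 1 ran the other way, with median ratios of 0.925 and 1.05, and library 3 stayed between 0.954 and 0.992. Library 2 held the highest value for 67.8% of genes in the longest group and for 22.3% in the shortest. Where scaling by transcript length changes whether a named gene passes the spread test described below, this is stated.

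**Figure D2:**
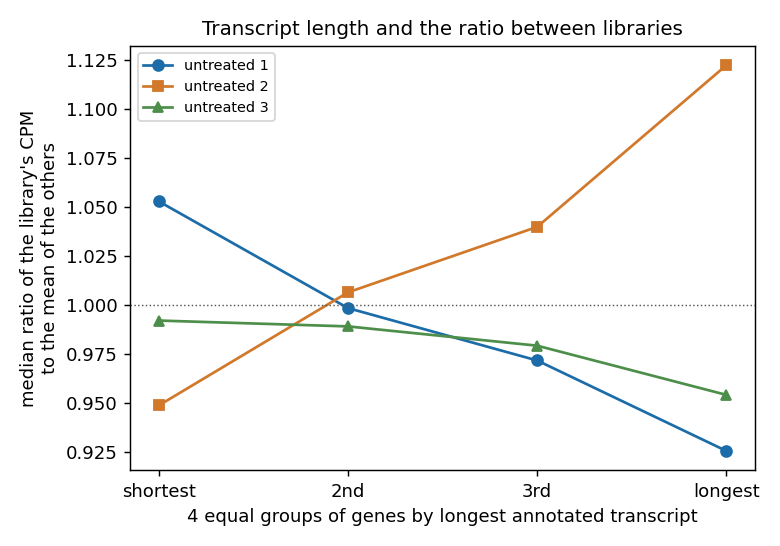
Points give the median, over the genes of each of 4 equal groups by longest annotated transcript (x axis), of the ratio of a library's CPM to the mean CPM of the others (y axis, not starting at 0). Library 2 climbs from 0.949 to 1.12 and library 1 drops from 1.05 to 0.925.

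The defining markers of the tumour cell were present in every library. Mycn (ENSMUSG00000037169, chromosome 12, 12936093 to 12941914, minus strand, mm10 coordinates) was at 81.1, 113 and 102 CPM in libraries 1, 2 and 3, or 98.7 ± 16.1 CPM (SD, n = 3). Library 2 was highest and library 1 lowest, 1.39 times apart, and the spread passed the test described below. Any transgene reads assigned to mouse Mycn are part of this level and were not separated. Any transgene reads not assigned to it are missing from this level. Th (ENSMUSG00000000214, chromosome 7, 142892752 to 142931128, minus strand), which encodes the rate-limiting enzyme of catecholamine synthesis, was at 126, 98.7 and 80.8 CPM, highest in library 1 and lowest in library 3. Hand2 (ENSMUSG00000038193, chromosome 8, 57320983 to 57324633, plus strand), a basic helix-loop-helix factor of sympathetic neurons, was at 29.4, 27.3 and 33.6 CPM and did not pass the spread test. Of its exon bases, 83% lie in the span of the antisense gene Hand2os1. Its level was 12.8 CPM per kilobase over all exon bases (rank 5166 of 17814) and 75.3 CPM per kilobase if its counts came only from the 400 bases outside that span. Its rank among adrenergic factors therefore depends on the counting.

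The adrenergic transcription factors were led by Tfap2b, and 3 of them were at least 2 times higher in one library than in another. Of 18 listed factors, 17 passed the filter on low counts and 1, Six3, had 0 counts. Tfap2b, an AP-2 factor of sympathetic precursors, was at 594, 731 and 585 CPM. Per length this is 100.5 CPM per kilobase, at rank 605. Insm1, a zinc-finger factor of neuroendocrine cells, was at 87.7 CPM per kilobase and Phox2a, a homeobox factor of autonomic neurons, at 84.8. The ranges of Insm1 and Phox2a over libraries overlap on this scale, so their order is not fixed. Of the ranked factors, 7 of 17 lay in the top 10% of all ranked genes per kilobase. At the low end, Hand1, the paralogue of Hand2, was at 10.7, 9.87 and 5.51 CPM.

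The list as a whole summed to 3689.9, 3789.9 and 3339 CPM in libraries 1, 2 and 3, or 3606 ± 237 CPM (SD, n = 3). Within it 12 of the 17 tested factors were called by the spread test described below, against 33.9% of all tested genes. Gata2 (ENSMUSG00000015053, chromosome 6, 88193891 to 88207032, plus strand), a zinc-finger factor of sympathetic differentiation, was at 318, 69.8 and 107 CPM. Library 1 stood apart from the other two, 4.56 times above library 2. Isl1, a LIM homeobox factor of the same circuit, was at 349.9, 419.9 and 209 CPM and was lowest in library 3, the reverse of Tbx2, a T-box factor at 126, 97.6 and 151 CPM. Gata3, the paralogue of Gata2, was at 88.5, 75.4 and 85.4 CPM and did not pass the spread test. Insm1 stayed within 1.05 times, at 276, 277 and 263 CPM. Sox11, an SRY-box factor of immature neurons with a long transcript, was at 377, 479 and 399 CPM and passed the test, but not after scaling by transcript length, when its highest library was 1.06 times its lowest.

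The spread was tested gene by gene over the 3 libraries. A chi-square test of the counts against those expected from the library sizes was run on 14960 genes, with Benjamini-Hochberg adjustment over all of them. It called 5064 genes (33.9%) as spread beyond counting error. In 2266 genes (15.1%) the highest library was at least 2 times the lowest, which is a description and no test. Both held for 1410 genes, of which 819 were highest in library 3, 397 in library 1 and 194 in library 2. Of all tested genes, 30.1% were highest in library 3, 34.6% in library 1 and 35.3% in library 2. A gene can pass the filter on low counts through 1 library alone, so this split rests partly on the filter. Of the adrenergic factors tested, 12 of 17 were called and 3 had a 2-fold spread, and the median of highest over lowest was 1.23, against 1.27 over all tested genes and 1.15 over those at 100 CPM or more, where most of these factors lie. The test is more sensitive at high counts. It called 57.7% of the 2676 genes at 100 CPM or more, of which 0.897% had a 2-fold spread, and 22.5% of the 2994 genes under 5 CPM, of which 50.4% had one. After scaling by transcript length, chosen after the data were seen, it called 4200 genes, 3840 of them shared with the calls above. Of the genes named here, Sox11, Slc18a2, Npm1, Smarca4 and Atr were then no longer called, and Aurka, Mdk, Mxi1 and Cdk6 were.

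**Figure D3:**
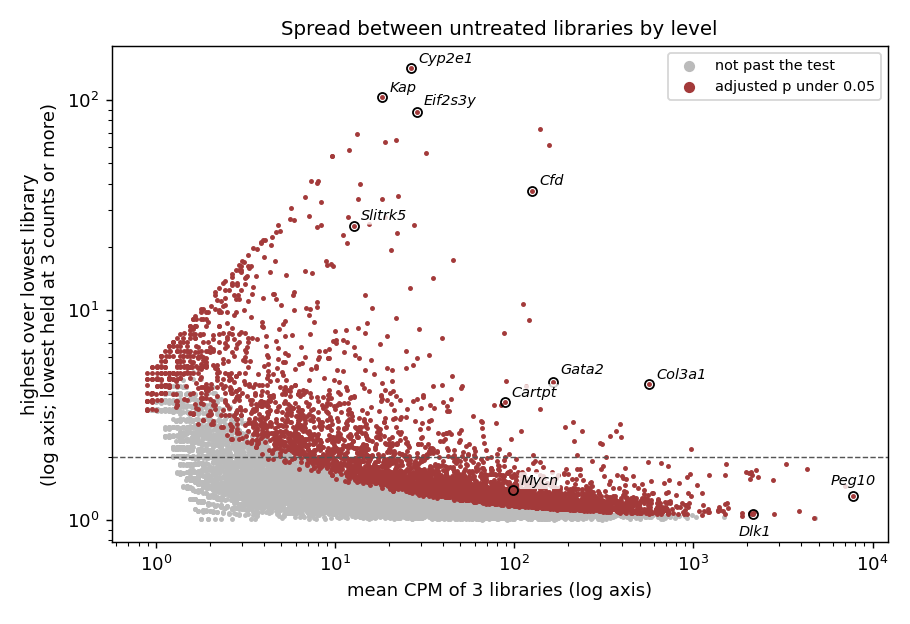
Each point is 1 of 14960 tested genes, by mean CPM of 3 libraries (x axis, log) and by the highest library's CPM over the lowest, held at 3 counts or more (y axis, log). The dashed line marks 2-fold, red points have an adjusted p under 0.05, and circled genes are named in the text. Genes with large spreads, such as Cyp2e1, Kap and Eif2s3y, lie at low to middle levels, while Peg10 and Dlk1, at the highest levels, have ratios of 1.3 and 1.07.

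The catecholamine machinery was present from synthesis to storage, with the noradrenaline transporter and the adrenaline enzyme near the bottom. Ddc, which makes dopamine, was at 366, 292 and 370.3 CPM, and Slc18a2, the vesicular monoamine transporter, at 84.3, 101 and 98.9 CPM. Dbh, which turns dopamine into noradrenaline, was at 67.4, 53.2 and 25.9 CPM, with library 3 the lowest, 2.6 times below library 1. Gch1, which supplies the cofactor of Th, was at 101, 43.2 and 58.3 CPM and was highest in library 1. Slc6a2, the noradrenaline transporter, was at 2.67, 7.05 and 4.44 CPM and Pnmt, the enzyme that makes adrenaline, at 3.03, 6.52 and 3.2 CPM. Slc18a1, the second vesicular transporter, was at 2.32, 0.881 and 1.78 CPM. Per length the order was Ddc at 76.8, Cyb561 at 69.1, Th at 43.1 and Dbh at 18.1 CPM per kilobase, down to Slc6a2 at 0.751 and Slc18a1 at 0.307. Of 11 genes tested, 8 were called and 5 had a 2-fold spread, against 33.9% and 15.1% of all tested genes. The whole list summed to 1143, 967 and 1008 CPM.

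Granins, the core proteins of secretory granules, and neuropeptides ran from among the highest genes of the tumour to none detected. Chgb, chromogranin B, was at 1159, 701 and 1017 CPM, or 350.1 CPM per kilobase, rank 130 of all ranked genes. Chga, chromogranin A, was at 309, 151 and 211 CPM. Library 2 was lowest for both. Cpe, a carboxypeptidase that trims peptide hormones, was at 213, 231 and 227 CPM and did not pass the spread test, nor did the granule genes Pcsk1n, Scg3 and Scg5. Cartpt, the precursor of the CART peptide, was lowest in library 1, where Chga was highest. It was at 36.7, 93.9 and 134 CPM, 3.65 times higher in library 3 than in library 1. Npy, neuropeptide Y, was at 10.7, 3.7 and 4.09 CPM. Scg2, secretogranin II, was at 1.25, 3 and 1.95 CPM, Gal at 1.25, 1.06 and 2.13 CPM and Penk at 0.178, 0.176 and 3.02 CPM. Sst had 0 counts in all libraries, and Pcsk1, a prohormone convertase, and Tac1 had 1 count each, in library 3. Of 12 genes tested, 6 were called and 6 had a 2-fold spread, against 33.9% and 15.1% of all tested genes.

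**Figure D4:**
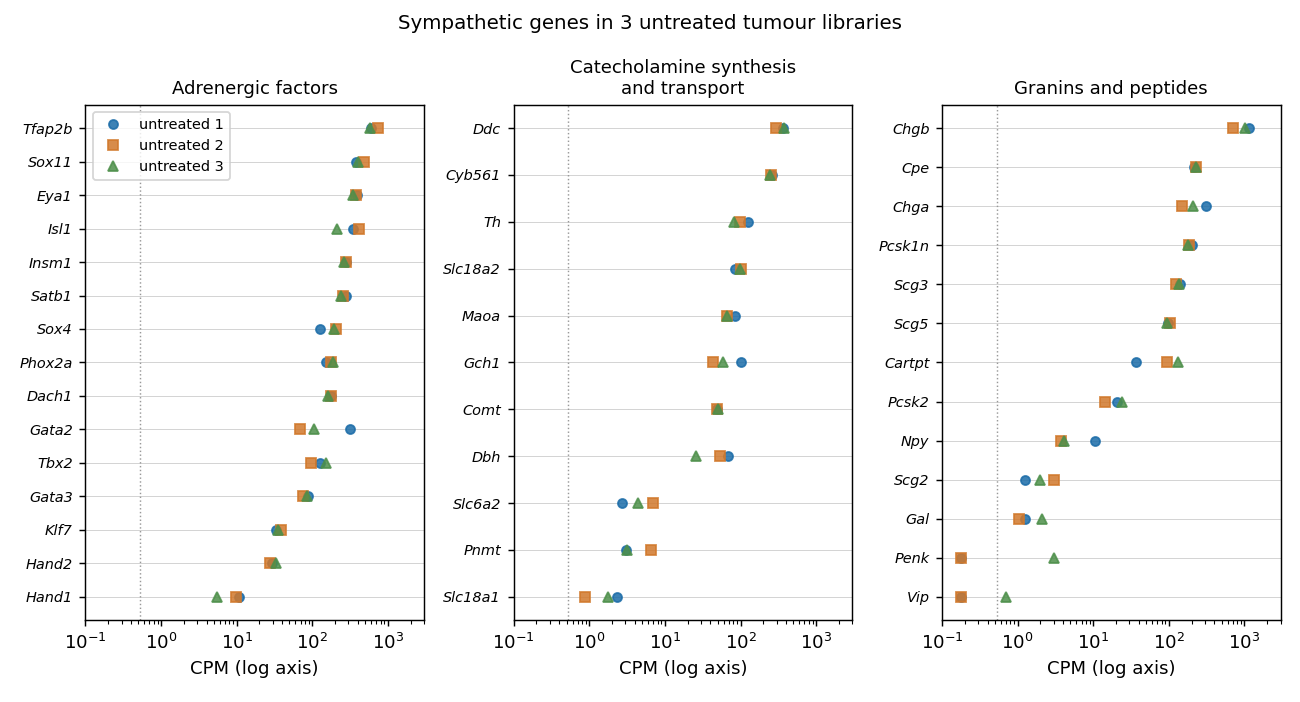
Points give CPM (x axis, log) of each gene in untreated libraries 1, 2 and 3 for 3 lists, ordered by mean, with genes at 0 in any library and some other members left out. The dotted line marks the level of about 3 counts. Most genes above 100 CPM have overlapping symbols, while Gata2, Isl1, Gch1, Dbh, Cartpt and Npy have one library set apart.

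Several of these secretory genes share a promoter element, looked for after their levels were seen and shown here because it stands both at high and at undetected members. The cAMP response element TGACGTCA, which reads the same on both strands, was searched in RefSeq promoter windows (GRCm38.p6) of 250 bases before to 50 after a start. It is in 1.79% of 32851 windows and, counted by gene, in 2.03% of 27025 genes. It is in 5 of the 14 granin and peptide genes with a window and in 2 of the 6 catecholamine genes with one. Among the other lists its share ran from 0 of 11 neuronal genes to 1 of 3 MHC class II genes and 1 of 3 Schwann cell genes. Each site is printed 5′ to 3′ on the strand of its gene, 30 bases long, with the element in capitals.
Chgb: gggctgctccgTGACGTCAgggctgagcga
Th: cagaggggcttTGACGTCAgcctggccttt
Slc18a2: agcgctgtccgTGACGTCAgagccggactg
Cartpt: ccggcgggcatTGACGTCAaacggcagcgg
Scg2: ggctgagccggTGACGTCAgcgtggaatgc
Pcsk1: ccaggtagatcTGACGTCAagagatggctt
Sst: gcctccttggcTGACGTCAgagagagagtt
The elements begin 72 bases before the start for Chgb (chr2:132781559-132781588, plus strand), 45 for Th (chr7:142900022-142900051, minus strand), 4 for Slc18a2 (chr19:59260863-59260892, plus strand) and 112 for Cartpt (chr13:99900777-99900806, minus strand). They begin 68 bases before it for Scg2 (chr1:79440076-79440105, minus strand), 78 for Pcsk1 (chr13:75089768-75089797, plus strand) and 48 for Sst (chr16:23890874-23890903, minus strand). The levels of these genes were 350.1 CPM per kilobase for Chgb, 69.1 for Cartpt, 43.1 for Th, 18.1 for Slc18a2 and 0.821 for Scg2, with Pcsk1 under the limit and Sst at 0. A match is a description of the letters and says nothing of binding.

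Most general neuronal genes were high, with small differences between libraries. Nefm, a neurofilament subunit, was at 1016, 1164 and 1203 CPM and Uchl1, a neuronal ubiquitin hydrolase, at 1005, 868 and 922 CPM. Stmn2, a growth cone protein, was at 442, 448 and 444 CPM and Rtn1 at 299.8, 299 and 296 CPM, and neither passed the spread test. The RNA-binding proteins Elavl3 and Elavl4 were at 582, 633 and 640.3 and at 175, 176 and 167 CPM. Syt1, the calcium sensor of synaptic vesicles, was lower in library 3, at 107, 106 and 62.9 CPM. Prph, peripherin, a filament of peripheral neurons, was at only 1.25, 0.529 and 0.71 CPM. Of 13 genes tested, 9 were called (69.2%, against 33.9% of all tested genes and 57.7% of those at 100 CPM or more). A 2-fold spread was found in 0 of them, and the median of highest over lowest was 1.16, near the 1.15 of all genes at 100 CPM or more. The list summed to 4851, 5039.8 and 4928 CPM.

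Most markers of the mesenchymal state of neuroblastoma were low. Of those with the most counts, Vim was at 172, 139.7 and 331 CPM and Fn1 at 126, 142 and 369 CPM, both highest in library 3. Cd44, a hyaluronan receptor, was called as well but was highest in library 1, at 109.8, 65.6 and 102 CPM. The factors of that state were low in all libraries, with Prrx1 at 3.03, 4.05 and 9.95 CPM, Yap1 at 4.28, 4.05 and 10.1 CPM, Runx2 at 1.25, 0.352 and 1.24 CPM and Snai2 at 1.07, 0.529 and 0.888 CPM. Of the 15 listed, 9 were highest in library 3 and 6 in library 1, several of them by a few counts. Of the 10 that passed the filter on low counts, 9 were highest in library 3 and 1 in library 1. That filter can be passed through 1 library alone. Over all tested genes 30.1% were highest in library 3 and 34.6% in library 1. Library 3 also held the most fibroblast RNA (below), whose part in this was not tested. Fosl2, an AP-1 factor of the list, was at 23.5, 22 and 32 CPM.

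The gene with the most counts of all, the mitochondrial genome included, was Peg10 (ENSMUSG00000092035, chromosome 6, 4747306 to 4760517, plus strand), a paternally expressed gene derived from a retrotransposon. It was at 7165, 9066 and 6986 CPM, or 7739 ± 1153 CPM (SD, n = 3), and at 1161 CPM per kilobase. Dlk1 (ENSMUSG00000040856, chromosome 12, 109452823 to 109463336, plus strand), an imprinted Notch-like membrane protein of immature chromaffin and adrenal cells, was at 2164, 2061 and 2196 CPM, within 1.07 times. Meg3 and Rian, maternally expressed long RNAs of the same imprinted cluster, were at 1072, 962 and 1297 and at 1445, 1312 and 1353 CPM. They were chosen after their values were seen, as was Agtr2, the angiotensin II type 2 receptor, at 1473, 1889 and 1147 CPM. H19, another imprinted long RNA, was at 86.1, 88.5 and 105 CPM. Counts of its imprinted neighbour Igf2, which lies almost wholly inside other genes, were 0 in all libraries and cannot be read. Of the other listed genes of sympathoadrenal states, Chga and Cartpt are described above and the rest were low. Cdkn1c was at 5.17, 4.41 and 3.73 CPM, Dll3 at 1.78, 4.58 and 2.84 CPM and Htr3a, a serotonin receptor of bridge cells with 74.9% of its exon bases in other genes, at 20.2, 9.34 and 12.4 CPM.

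The 30 highest genes per kilobase, with the mitochondrial genome and ribosomal proteins counted apart, held 23 pseudogenes and 6 protein-coding genes. The latter were Hsp90ab1, a chaperone (1562 CPM per kilobase), the elongation factors Eef1a1 (1561) and Eef2 (1429.8), Peg10 (1161), prothymosin Ptma (966) and the tubulin Tubb5 (843). The first was Gm10925, an unprocessed pseudogene on chromosome 1, at 3095, 2039.6 and 3159.9 CPM, and 4 more of its kind on that chromosome, Gm28661, Gm28437, Gm29216 and Gm28439, were in the list. These 5 were lowest in library 2, as was the mitochondrial genome, whose genes held 3.34, 2.1 and 3.4% of counts. Processed pseudogenes held 7.59, 6.93 and 7.15% of counts. Reads of a gene and its near-identical copies can be split between them, so levels of such genes are uncertain, ribosomal proteins included.

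Of the mouse MYC genes, Mycn was the highest, with the limit on transgene reads given above. Myc was at 4.46, 2.82 and 6.04 CPM and Mycl at 24.8, 21.5 and 21.1 CPM, against 81.1, 113 and 102 CPM for Mycn. Per length these are 29.9 CPM per kilobase for Mycn (rank 2405), 5.57 for Mycl and 1.63 for Myc. Max, the obligate partner, was at 96.5, 105 and 104 CPM and did not pass the spread test. Among the proteins that oppose MYC at E-boxes, Mnt was at 102, 93.7 and 111 CPM and Mxi1 at 153, 137 and 135 CPM, while Mxd1 was at 15.2, 10.6 and 17.6 CPM. Mga, a MAX-binding repressor, was at 154, 215 and 164 CPM, highest in library 2. Of 13 genes tested, 7 were called and 2 had a 2-fold spread, against 33.9% and 15.1% of all tested genes.

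Known MYC targets were high, with small differences between libraries. Of those ranked, 12 of 14 were in the top 10% of all ranked genes per kilobase. Ncl, nucleolin, was at 2082, 2123 and 1974 CPM and Npm1, nucleophosmin, at 766, 689 and 693 CPM. Srm, spermidine synthase, was at 431, 424 and 416 CPM and Odc1, the first enzyme of polyamine synthesis, at 172, 173 and 167 CPM, and neither passed the spread test. Cad, the enzyme that starts pyrimidine synthesis, was at 321, 455 and 376 CPM and was called, also after scaling by transcript length, when its highest library was 1.24 times its lowest. Of 14 tested, 4 were called (28.6%, against 33.9% of all genes and 57.7% of those at 100 CPM or more). A 2-fold spread was found in 0 of the 14. The median of highest over lowest was 1.08, against 1.15 over all genes at 100 CPM or more. The list summed to 6892, 6912 and 6660.5 CPM.

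The E-box CACGTG, also a palindrome, is in 7.15% of all windows and in 8.09% of genes, against 5 of the 12 MYC targets with a window and 5 of the 12 network genes with one. Among the other lists its share ran from 0 of 11 neuronal genes to 3 of 7 dendritic cell genes. The MYC targets with an E-box and a level that can be read were Ldha, Ran, Eif4a1 and Eif4e, whose sites are printed as above, with the E-box in capitals, as examples of the sequence that MYC and its partners read.
Ldha: ggtgtcgcagcaCACGTGgagccactcttg
Ldha: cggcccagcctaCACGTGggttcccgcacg
Ran: gctcggccggccCACGTGacccgccgcccc
Eif4a1: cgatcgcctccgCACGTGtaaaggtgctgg
Eif4e: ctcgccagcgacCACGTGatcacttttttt
Eif4e: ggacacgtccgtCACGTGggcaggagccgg
The sites begin 145 and 48 bases before the start of Ldha (chr7:46845647-46845676, plus strand, and chr7:46845744-46845773, plus strand) and 118 before that of Ran (chr5:129020026-129020055, plus strand). They begin 189 bases before the start of Eif4a1 (chr11:69672595-69672624, minus strand) and 228 and 64 before that of Eif4e (chr3:138527028-138527057, plus strand, and chr3:138527192-138527221, plus strand). Levels were 199.9 CPM per kilobase for Ldha, lactate dehydrogenase, 201 for the nuclear transport GTPase Ran, 103 for the helicase Eif4a1 and 29.1 for the cap-binding protein Eif4e. Ncl and Odc1, at 202 and 50.1 CPM per kilobase, have no CACGTG in these windows.

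Proliferation genes were high in all 3 tumours. Of the mitotic genes, Mki67, the classical proliferation antigen, was at 769, 919 and 701 CPM, Top2a, the topoisomerase of chromosome condensation, at 711, 818 and 675 CPM and Aurka, the kinase Aurora-A, at 128, 141 and 125 CPM. Of 13 mitotic genes, 9 were highest in library 2 and 4 in library 1, and all 13 were lowest in library 3. Over all tested genes 35.3% were highest in library 2, 34.6% in library 1 and 30.2% lowest in library 3. Library 3 held the most fibroblast and adipocyte RNA. The part of that RNA in this order was not tested. After scaling by transcript length, 9 were again highest in library 2 and 4 in library 1. Of the 13, 10 were called (76.9%, against 33.9% of all tested genes and 57.7% of those at 100 CPM or more) and 0 had a 2-fold spread, with a summed level of 3572, 3902 and 3265 CPM. Replication genes summed to 2939, 2965 and 2749 CPM. Mcm2, a subunit of the replicative helicase, was at 417, 434 and 408 CPM and Rrm2, the regulated subunit of ribonucleotide reductase, at 332, 315 and 276 CPM. Of 13 tested, 5 were called (38.5%, against 33.9% of all tested genes and 57.7% of those at 100 CPM or more). A 2-fold spread was found in 0 of the 13. Lowest in library 3 were 9 of them, against 30.2% of all tested genes.

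Among regulators of the G1/S step, Cdk4 and Ccnd1, its partner cyclin D1, dominated, at 715, 665 and 649 and at 627, 601 and 518 CPM. Cdk6 was at 2.5, 2.82 and 5.33 CPM, and Ccnd2 at 12.3, 3.35 and 8.53 CPM. Cdkn1b, p27, was at 207, 167 and 168 CPM. The inhibitors tied to p53 and ARF differed between tumours. Cdkn1a, p21, was at 10.3, 27.3 and 14.9 CPM, highest in library 2, 2.64 times above library 1. Cdkn2a, the locus of p16 and ARF, was at 10.7, 14.6 and 2.49 CPM, lowest in library 3, 5.88 times below library 2. Trp53 itself was at 114, 105 and 114 CPM and its antagonist Mdm2 at 95.9, 106 and 102 CPM, and neither passed the spread test. Mcl1, an anti-apoptotic BCL2 protein, was at 220.2, 224 and 229.8 CPM, against 59.4, 46.3 and 45.5 CPM for Bcl2l1 and 12.7, 14.4 and 13.1 CPM for Bcl2. Per length these were 65.8, 11 and 1.47 CPM per kilobase.

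Another list held Aurora kinases, their activators, ATR and its partners. Atr, the replication stress kinase, was at 45.7, 60.4 and 46.9 CPM and its effector kinase Chek1 at 54.9, 62.7 and 56 CPM. Tpx2, the activator of Aurora-A, was at 263, 300.4 and 260.4 CPM. Atm, a kinase of DNA breaks, was at 45.3, 70.7 and 47.6 CPM, highest in library 2. Of 13 listed chromatin regulators, 11 were highest in library 2, against 35.3% of all tested genes, and 9 were so after scaling by transcript length. Smarca4, the ATPase of the BAF complex, was at 652, 742 and 671 CPM, Atrx at 267, 337 and 265 CPM and Ezh2, the methyltransferase of PRC2, at 194, 204 and 166 CPM. Tert, the catalytic subunit of telomerase, was at 16.8, 22.4 and 17.9 CPM. Cytosolic ribosomal protein genes, which are short, ran opposite, with 64 of 76 tested highest in library 1, against 34.6% of all tested genes, and 68 lowest in library 2, against 36.4%. Of the 76, 59 were called (77.6%, against 33.9% of all tested genes and 57.7% of those at 100 CPM or more). After scaling by transcript length 34 were called, against 28.1% of all tested genes, and 55 of the 76 were still highest in library 1.

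Genes of glycolysis were at 3486, 3285 and 3436 CPM in sum, with Pkm, the last enzyme of the pathway, at 985, 955 and 1007 CPM and the hexokinase Hk2 highest in library 2, at 48.5, 81.4 and 66.1 CPM. Of 14 tested, 4 were called (28.6%, against 33.9% of all genes and 57.7% of those at 100 CPM or more). A 2-fold spread was found in 0 of the 14. The median of highest over lowest was 1.15, as over all genes at 100 CPM or more. Immediate early genes, which are induced within minutes of stress, were led by Jun at 126, 124 and 132 CPM. Fos was at 3.03, 1.59 and 2.84 CPM and Egr1 at 8.92, 7.22 and 11 CPM. Of 7 tested, 2 were called (28.6%, near the 33.9% of all genes). Of the 8 listed, 6 were highest in library 3, as were 5 of the 7 tested, against 30.1% of all tested genes.

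Among receptors, Alk, the tyrosine kinase mutated in familial neuroblastoma, was at 85.6, 124 and 109.9 CPM, highest in library 2. Kit, the stem cell factor receptor, was at 62.8, 88.6 and 54.7 CPM. Ret, the receptor of GDNF-family ligands, was at 45.3, 22.6 and 24.7 CPM and its co-receptor Gfra3 at 46.9, 29.6 and 26.1 CPM, both highest in library 1, while Gfra2 was at 2.32, 4.93 and 8.35 CPM, highest in library 3. Of the neurotrophin receptors Ntrk3 was at 25.7, 19.6 and 13.1 CPM, Ntrk2 at 9.45, 12 and 16.7 CPM and Ngfr at 1.96, 2.47 and 2.66 CPM. Among ligands, midkine, Mdk, was the highest at 146, 151 and 146 CPM, and its paralogue Ptn, pleiotrophin, was at 33.5, 17.8 and 14.6 CPM, lowest in library 3. Bdnf, a ligand of Ntrk2, was at 23, 43.9 and 24.9 CPM. The ALK ligands Alkal1 and Alkal2 were at 2.5, 0.705 and 2.31 and at 0.178, 0.176 and 0.71 CPM, and Gdnf and Artn were under the limit of 3 counts. Per length Mdk was at 111 CPM per kilobase. The highest receptors on that scale were Gfra3 at 17.1 and Alk at 13.7 CPM per kilobase, and Gfra3 was not above Alk in every library. Of 15 receptors tested, 11 were called and 6 had a 2-fold spread, against 33.9% and 15.1% of all tested genes.

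Targets of antibodies and cell therapies were present in every library. Cd24a was at 488, 525 and 450.3 CPM, Cd276, B7-H3, at 86.3, 78.4 and 75 CPM and L1cam at 29.1, 42.8 and 36.8 CPM. The enzymes that make the ganglioside GD2, B4galnt1 and St8sia1, were at 48.3, 57.1 and 53.3 and at 26.9, 30.5 and 28.2 CPM. St8sia1 has 82.7% of its exon bases inside other genes. Lin28b, the oncofetal RNA-binding protein, was at 55.5, 74.5 and 47.1 CPM, while Lin28a was at 0.178, 0.529 and 0.71 CPM. Igf2bp3 was at 20.9, 12.7 and 26.8 CPM, and Hmga2 and Igf2bp1 were under the limit of 3 counts.

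Stromal genes were present in every tumour and their summed levels had wide ranges. Fibroblast markers summed to 1149.9, 1007 and 2917 CPM in libraries 1, 2 and 3, adipocyte markers to 167, 209 and 1018 CPM and endothelial markers to 265, 129 and 194 CPM. Pericyte and smooth muscle markers summed to 295, 189 and 317 CPM. Library 3 was thus highest in fibroblast and adipocyte RNA and library 2 lowest in vessels. The highest sum was 2.9 times the lowest for fibroblast markers, 6.11 times for adipocyte markers and 2.05 times for endothelial markers, against 1.14 times for the adrenergic factors. The mean of the fibroblast sum was 1691 CPM and 1078 CPM without library 3. This is a description of 3 libraries, with no test between lists.

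**Figure D5:**
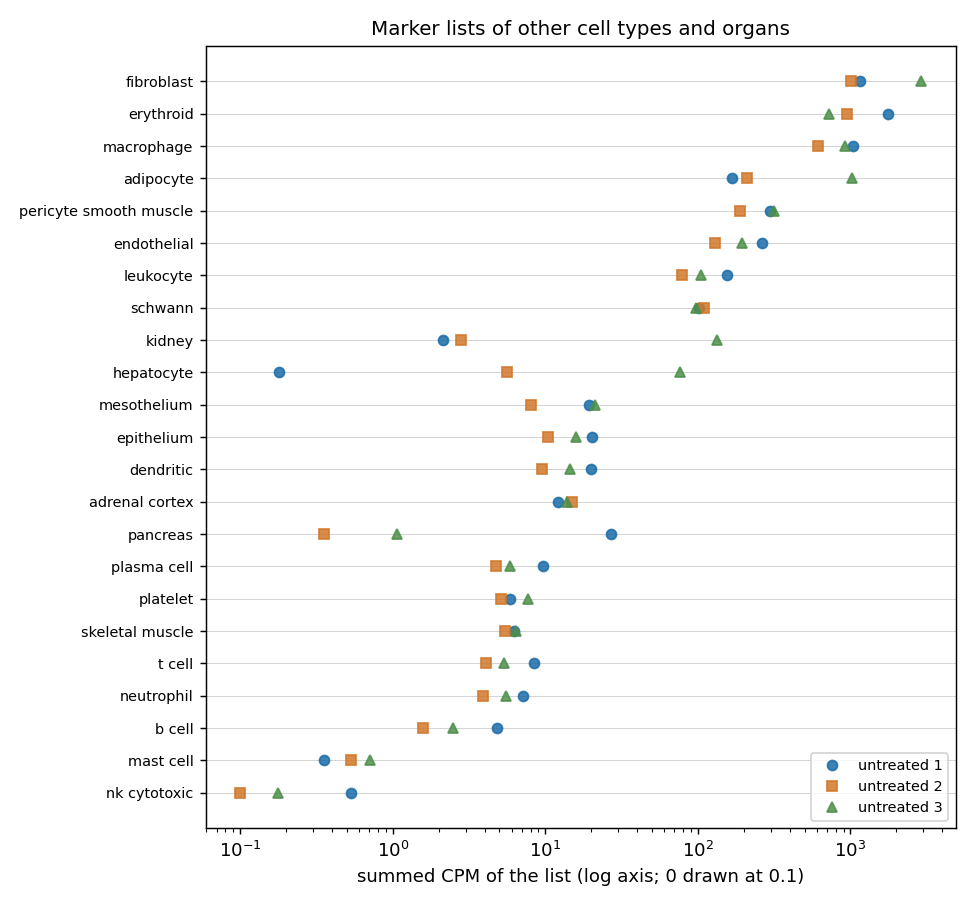
Points give the summed CPM (x axis, log, 0 drawn at 0.1) of each list of markers of other cell types or organs in untreated libraries 1, 2 and 3, ordered by mean. Library 3 stands to the right for fibroblast, adipocyte, kidney and hepatocyte lists, library 1 for the pancreas list, and library 2 to the left for endothelial, macrophage and leukocyte lists.

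Of the 12 fibroblast markers, 11 were called, 11 had a 2-fold spread and 11 were highest in library 3. Over all tested genes these shares were 33.9%, 15.1% and 30.1%. Col3a1, a fibrillar collagen, was at 291, 258 and 1144 CPM and Col1a1 at 306, 249 and 622 CPM. The matrix proteoglycan Dcn was at 10.7, 6.17 and 87.9 CPM, Pdgfra, a receptor of fibroblasts, at 1.6, 1.23 and 14.6 CPM and Mfap5 at 1.6, 3.7 and 41 CPM. The highest library, library 3 for all 5 genes, was 14.3 times the lowest for Dcn, 25.6 times for Mfap5 and 11.8 times for Pdgfra, against 4.43 times for Col3a1 and 2.5 times for Col1a1. Fbln1 was the exception, at 145, 176 and 167 CPM. Postn, periostin, was at 35, 72.6 and 123 CPM.

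Of 10 adipocyte markers, 9 were highest in library 3, and 8 of the 9 tested were called and had a 2-fold spread. Over all tested genes 30.1% were highest in library 3, 33.9% were called and 15.1% had a 2-fold spread. Without library 3 the mean of their sum was 187.7 CPM, against 464.5 CPM with it. Cfd, adipsin, was at 9.09, 30.8 and 336 CPM, Adipoq, adiponectin, at 1.78, 5.29 and 49.6 CPM and Plin1, a lipid droplet coat protein, at 1.43, 4.76 and 48.5 CPM. Library 2 lay between the others for these 3 genes. Ucp1, the uncoupling protein of brown fat, was at 1.78, 2.29 and 19.5 CPM. Cidea, also a brown fat gene, did not follow them, at 67.4, 59 and 61.3 CPM, and did not pass the spread test.

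Of 12 endothelial markers, 11 were called, 6 had a 2-fold spread and 11 were lowest in library 2. Over all tested genes these shares were 33.9%, 15.1% and 36.4%. Cdh5, VE-cadherin, was at 43.9, 22.2 and 28.8 CPM, Pecam1 at 41.6, 18 and 27.4 CPM and Emcn, of veins and capillaries, at 18.2, 5.11 and 8.53 CPM. Rgs5, a pericyte gene, was at 88.6, 51.5 and 98.6 CPM and Acta2, smooth muscle actin, at 68.1, 54.6 and 84.9 CPM. Vegfa, the endothelial growth factor, was at 81.3, 63.3 and 62.9 CPM. Hypoxia genes summed to 144, 127 and 133 CPM. Of them, Egln3 was at 5.17, 5.46 and 4.44 CPM and Car9 under the limit of 3 counts.

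Macrophage genes had the highest sum of the immune cell lists, at 1044, 611 and 915 CPM. Lyz2, lysozyme of myeloid cells, was at 527, 297 and 417 CPM, C1qb at 109, 65.6 and 96.6 CPM and Csf1r, the receptor for macrophage growth factor, at 44.6, 21.1 and 37.8 CPM. Library 2 was lowest for 12 of 15 tested genes, 10 were called, and 5 had a 2-fold spread. Over all tested genes these shares were 36.4%, 33.9% and 15.1%. Mrc1 and Cd163, scavenger receptors of tissue-resident macrophages, had another order, at 9.81, 12.3 and 36.4 and at 1.43, 1.23 and 15.1 CPM, both highest in library 3, where Cd163 was 12.2 times the lowest library. Ptprc, the pan-leukocyte CD45, was at 34.1, 8.99 and 11.9 CPM and stood apart in library 1. The MHC class II genes summed to 209, 88.5 and 209 CPM, with the invariant chain Cd74 at 81.3, 30.8 and 84.7 CPM.

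Most lymphocyte markers had few counts or none. T cell markers summed to 8.38, 4.05 and 5.33 CPM, nearly all of it Cd4, at 7.13, 3.52 and 4.8 CPM, a gene that some mouse dendritic cells also express. Cd3e and Cd3g had 0 counts in all libraries, and Cd8a was at a mean of 0.237 CPM. NK and cytotoxic markers summed to 0.535, 0 and 0.178 CPM, with Prf1, Gzmb and Nkg7 at 0. B cell markers summed to 4.81, 1.59 and 2.49 CPM and neutrophil markers to 7.13, 3.88 and 5.51 CPM, with Ly6g at 0. Plasma cell markers summed to 9.63, 4.76 and 5.86 CPM. Ighm, the constant region of the IgM heavy chain, was called and was highest in library 1, at 7.67, 0.529 and 2.66 CPM, while Igkc, the kappa light chain, lies wholly inside other genes and had 0 counts. A marker at 0 does not show that a cell type was absent. Interferon genes were low as well, at 29.2, 26.1 and 49.4 CPM in sum, and MHC class I genes were led by H2-D1 at 104, 83.7 and 142 CPM, highest in library 3.

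Schwann cell genes were low apart from Mbp, which was at 84.9, 80.4 and 76.7 CPM. The Schwann lineage factor Sox10 was at 1.78, 2.47 and 2.31 CPM, and S100b was under the limit of 3 counts on average. Haemoglobin genes Hbb-bs and Hba-a1 were at 541, 270.3 and 216 and at 457, 266 and 199 CPM, highest in library 1, while Klf1, a factor of red cell precursors, had 0 counts.

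Transcripts of other organs marked single libraries. Of 12 kidney markers, 11 were highest in library 3, and 8 passed the filter on low counts, which they could do through that library alone. The mean of their sum was 45.9 CPM and 2.48 CPM without library 3. Kap, an androgen-regulated protein of the proximal tubule, was at 0, 0.176 and 54.7 CPM. Slc34a1, a phosphate transporter of that tubule, was at 0, 0.176 and 28.8 CPM and Umod, of the loop of Henle, at 0, 0 and 10.5 CPM. The podocyte gene Nphs1 was at 1.25, 1.06 and 1.42 CPM. Cyp2e1, on the hepatocyte list and also a gene of fat and kidney, was at 0, 4.93 and 74.8 CPM, while Alb, albumin, was at 0, 0.705 and 0.355 CPM, near the limit of 3 counts. The mean of the hepatocyte list was 27.2 CPM and 2.91 CPM without library 3. In library 1 the exocrine pancreas genes Ctrb1 and Pnlip were at 11.4, 0.176 and 0.533 and at 8.92, 0 and 0.355 CPM, and the mean of the pancreas list was 9.39 CPM and 0.709 CPM without library 1. Adrenal cortex markers were low and even at 12.1, 15 and 13.9 CPM, most of it Star. Mesothelial markers summed to 19.3, 8.11 and 21.1 CPM, epithelial markers to 20.2, 10.4 and 15.8 CPM and skeletal muscle markers to 6.24, 5.46 and 6.39 CPM. Values of these lists are given beside the tumour genes, and their part in the spread of those genes was not tested.

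The genes that set each library apart, taken as the 10 with the highest ratio to the mean of the other libraries among called genes of at least 5 CPM, had different make-ups. In library 1 they were led by the Fc receptor Fcgr4, at 16.9, 1.94 and 4.09 CPM, and held the integrin Itgal, Ptprc, Cd72 and Cd5l beside Gata2. Fcgr4 was 5.62 times and Cd5l, a secreted macrophage protein, 3.02 times the mean of the others. Asb4, a ubiquitin ligase adaptor, at 74, 28.2 and 16.9 CPM, and the lens filament gene Bfsp1, at 63.8, 25.4 and 10.5 CPM, were also among them.

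In library 2 the tail held no immune gene of the lists. Its first gene was Slitrk5, a synaptic membrane protein, at 1.25, 31.5 and 5.33 CPM, 9.59 times the mean of the others. Meis2, a TALE homeobox factor, was at 68.3, 166 and 36.2 CPM, Grm5, a glutamate receptor, at 6.06, 15.9 and 2.49 CPM and Hpca, a neuronal calcium sensor, at 8.2, 37.5 and 16.2 CPM. The lowest genes of library 2 included the Y-linked Kdm5d, Uty, Eif2s3y and Ddx3y. Ddx3y was at 67.4, 3.88 and 64.7 CPM and Eif2s3y at 46.4, 0 and 39.3 CPM. The labels give no sex, and a link of these values to the sex of the mice was not tested. Xist lies wholly inside the span of other genes and had 0 counts in all libraries, so it gives no information here.

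In library 3 the tail held kidney genes (Acsm2, Kap and Slc34a1 among them), Cyp2e1 and genes of fibroblasts and connective tissue, among them Htra3 at 1.6, 4.58 and 89.9 CPM, Pi16 at 0.713, 1.06 and 23.3 CPM and Clec3b at 0.892, 0.705 and 19.7 CPM. Its lowest genes, besides Cdkn2a, were Grm5, Meis2, Slitrk5, Frmd3 and Lef1, a factor of the Wnt pathway at 33.7, 41.6 and 11 CPM. Called genes of at least 5 CPM that were 2 times or more the mean of the others numbered 277 in library 3, 78 in library 1 and 36 in library 2. Those at or under 0.5 times numbered 40, 219 and 322. A mean of 5 CPM can be reached through 1 library alone, as by Kap, so these numbers rest partly on that limit.

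Pairs of libraries were compared over the tested genes. Across genes, which are not independent replicates, Spearman's rho was 0.982 for libraries 1 and 2, 0.976 for 1 and 3 and 0.977 for 2 and 3. Each pair differed well beyond counting error, with a chi-square of 6.58 to 8.82 per gene where counting error alone gives about 1, and each was counted as 1 sample. The biological coefficient of variation, the spread left after counting error, was 18.4% over the 3 libraries and 15.6% without library 3.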

How the data were processed

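Whole-number counts per Ensembl gene were used as the authors deposited them, 1 file per library. Per the submitters' processing notes the build was mm10 and the tools TopHat2 2.1.1, HISAT2 and edgeR, without their roles. For the read counter, its annotation and its strand setting, the sources used here give nothing. Of 54446 identifiers, 54409 had a symbol in GENCODE M21, while 37 did not and took no more than 0.0038% of any library's counts. In R 4.3.3, edgeR 4.0.16 filterByExpr (each library its own group, minimum count 10, minimum total 15) left 14960 genes, and TMM gave factors of 0.9978, 1.0038 and 0.9984. The spread test was a chi-square with 2 degrees of freedom per gene, called under an adjusted p of 0.05 and checked on simulated counts. Apart from genes changed on purpose, the simulated counts held counting error only. They cannot show how the test behaves with other technical spread. The spread test compares these libraries and is no test of a condition. Exon lengths and gene spans came from GENCODE M21, and promoter windows from RefSeq. Alternatives were DESeq2 1.42.0 size factors, unscaled totals, other filters and thresholds, and each library left out. After the data were seen, scaling in 20 groups of genes by longest transcript and exon length outside other genes (at least 200 bases) were added. Named genes were members of 48 lists, the 30 genes with the highest CPM per kilobase, the 10 highest and 10 lowest ratios per library, and the tumour markers. The tumours, lists and rule were chosen with earlier results of these data known. Python 3.11.15 with matplotlib 3.10.9 made the plots. Some genes that the rule names are left out of the text and plots.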

Additional observations from a re-analysis of the deposited data

How the results depend on the processing

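With 3 libraries, results were recomputed with DESeq2 size factors, library totals, other filters and thresholds, and each library left out. Under another scaling the mean sums of the 50 gene lists moved by at most 0.21%. With 1 library left out, 6 of the 50 moved by over 1.5 times. Without library 3 the fibroblast mean was 1078 CPM, against 1691, adipocyte 187.7, against 464.5, kidney 2.48, against 45.9, and hepatocyte 2.91, against 27.2 CPM. Without library 1 the pancreas mean was 0.709 CPM, against 9.39, and the NK and cytotoxic mean 0.0888, against 0.238 CPM. Of 34 other recomputed values, 25 stayed within their limits. The genes called by the spread test numbered 2439 to 3593 with 1 library left out, against 5064. Fewer counts then enter the test, and the part of this in the drop was not tested. Genes with a 2-fold spread then numbered 1231 to 1390, against 2266. They numbered 9026 with no filter, 756 at a mean of at least 5 CPM, and 4340 with a threshold of 1.5 times. The biological coefficient of variation was 15.6% to 19.1% with 1 library left out, the lowest without library 3. DESeq2 size factors left it at 18.4%. No paired analysis was possible because only 1 group was described. Depth limits genes under about 5 CPM, where 50.4% had a 2-fold spread and 22.5% were called.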
